A study of Mus musculus with 9 samples.

Results

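The band 3, Rh and blood group proteins of the red cell surface were examined as 9 genes named by symbol: Slc4a1, Epb4.2, Ank1, Rhag, Rhd, Kel, Xk, Icam4 and Ermap. All 9 were among the 24391 genes of the deposited gene-body table, and all 9 passed the filter on low counts that left 13825 genes. They took in 39 of the 42114 entries of the regulatory element table (25 of 26991 peaks), by lying inside one of the genes or by being assigned to one, 1 of them at the long noncoding RNA Bloodlinc. Of these entries 35 passed the same filter among 35158.

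The measurement was PRO-seq (precision run-on sequencing), which maps RNA polymerase engaged on DNA and so reads transcription rather than RNA level, in 9 libraries of 2 mouse erythroid progenitor lines. G1E cells, a line without functional GATA1, gave 2 libraries, and G1E-ER4 cells, derived from G1E and expressing GATA1-ER, a fusion of GATA1 to the estrogen receptor ligand-binding domain that estradiol switches on, gave 3 libraries with no estradiol (0 h), 2 after 13 h and 2 after 24 h in 100 nM estradiol. All 9 libraries were of cells kept in medium with erythropoietin and kit ligand, and the line, as generally described, is a subclone, so line and clone cannot be told apart in the comparison with G1E. Nothing in the labels says that replicates were separate cultures, so p-values measure the spread between these libraries, which may be technical.

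Band 3, the product of Slc4a1, is the chloride-bicarbonate exchanger of the red cell and an anchor of its membrane. Ankyrin, from Ank1, ties band 3 to the spectrin skeleton, and the protein of Epb4.2 stabilises that joint, to which the Rh complex of Rhag and Rhd also attaches. Kel is a surface endopeptidase linked to the membrane protein Xk, Icam4 is an adhesion molecule, and Ermap is a surface protein of the butyrophilin-like family, each of them the carrier of a human blood group. GATA1 is the factor that drives much of this late erythroid program.

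The stretches directly before a transcription start are shown for the letters of the GATA motif that they hold. RefSeq windows, on the build GRCm38.p6 rather than the mm9 of the counts, reach from 250 bases before to 50 after a start and were matched for 7 of the 9 genes (Slc4a1 and Ank1 were not matched). The GATA motif was searched on both strands as AGATAA with either A or T as its first base and either A or G as its last. It occurred in 6 of these 7 windows, all but that of Xk, and in 29.76% of all 32851 windows of 300 bases. The letters CCNCNCCC, a KLF-type motif, occurred in 3 of 7 (49.47% of all windows) and the E box CAGNTG in 2 of 7 (51.42%), again on either strand. In the 120 bases before the start alone, 5 of 7 held GATA letters, against 12.76% of all windows. Those 5 stretches follow, 5′ to 3′ on the strand of the gene, with the GATA letters in capitals; they are shown because the levels of the genes behind them took different courses. They lie at chr4:134864416-134864535 (Rhd, plus strand), chr4:119189996-119190115 (Ermap, minus strand), chr9:21029312-21029431 (Icam4, plus strand), chr17:40811029-40811148 (Rhag, plus strand) and chr6:41704326-41704445 (Kel, minus strand).
Rhd: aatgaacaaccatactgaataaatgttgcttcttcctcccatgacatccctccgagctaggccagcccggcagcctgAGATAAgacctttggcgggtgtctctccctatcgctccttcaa
Ermap: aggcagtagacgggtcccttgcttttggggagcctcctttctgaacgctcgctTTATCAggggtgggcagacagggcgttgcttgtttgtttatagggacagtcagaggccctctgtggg
Icam4: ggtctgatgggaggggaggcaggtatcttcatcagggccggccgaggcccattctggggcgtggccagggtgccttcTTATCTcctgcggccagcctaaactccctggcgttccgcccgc
Rhag: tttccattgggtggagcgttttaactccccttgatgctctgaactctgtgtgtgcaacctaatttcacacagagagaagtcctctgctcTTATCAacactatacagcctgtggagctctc
Kel: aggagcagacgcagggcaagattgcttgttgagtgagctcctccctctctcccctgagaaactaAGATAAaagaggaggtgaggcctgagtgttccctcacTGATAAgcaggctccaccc
The letters began 43 bases before the start in Rhd and Icam4, 67 in Ermap, 31 in Rhag, and 56 and 19 in Kel. As the results give, the gene bodies of Rhd, Ermap and Icam4 rose with estradiol and those of Rhag and Kel were not called past the threshold. A match is a description of letters and not of a bound site.

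The libraries held 37830789 to 139945759 gene-body reads and 15394427 to 59952454 reads in the entries, and the 9 genes took 0.0849% to 0.253% of the gene-body reads of a library. Values are depth-scaled counts (CPM, reads relative to a library's scaled total) after edgeR's TMM scaling, without division by gene length, so levels are not compared between genes. Reads of Esr1, whose ligand-binding domain the fusion may carry, stood at 0.531 and 0.811 CPM in G1E and at 11.4 to 30.3 CPM in the 7 G1E-ER4 libraries. The summed level of 10 erythroid markers ran from 560 to 760 CPM in G1E, from 596 to 613 at 0 h, from 1425 to 1546 at 13 h and from 2499 to 3095 at 24 h. The sum of 8 mast cell markers, with Mcpt8 at 0 everywhere and Fcer1a, Tpsb2 and Cma1 below 1 CPM everywhere, ran from 75.2 to 189 CPM in G1E, from 96.4 to 139.7 at 0 h, from 4.75 to 8.15 at 13 h and from 1.05 to 1.54 at 24 h. That of 8 megakaryocyte markers (3 of them below 1 CPM everywhere) ran from 60.6 to 67.2, 38.7 to 54.9, 140.5 to 146 and 92.7 to 150.5 CPM in the same order. That of 8 granulocyte and monocyte markers, all but Cd68 below 1 CPM everywhere and S100a8 at 0, ran from 95.2 to 157, 125 to 198, 78.7 to 107 and 32.0 to 38.5 CPM, and 6 lymphocyte markers summed to at most 1.80 CPM. Their part in the results was not tested. In such bulk libraries, fewer transcribing cells and less transcription per cell cannot be told apart.

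Most of these genes rose with estradiol, and none fell past the threshold. At 13 h against 0 h, 5 of 9 gene bodies were called higher and 0 lower (edgeR quasi-likelihood test, adjusted p below 0.05), where 41.0% of all tested genes were called, 20.1% higher and 20.9% lower; 6 of 9 had an unadjusted p below that value, and DESeq2 called 6 higher and 0 lower. After 24 h against 0 h, 6 were higher and 0 lower, where 59.7% of all genes were called, 29.0% higher and 30.7% lower; DESeq2 also called 6 higher and 0 lower, and 7 had an unadjusted p below the threshold, Rhag among them on the lower side. The median log2 fold change of the 9 genes was 0.69 at 13 h and 1.2 at 24 h, beside -0.02 and -0.07 over all genes. These are counts over genes chosen with earlier results known. Scaling to total counts instead of TMM moved the median over all genes at 24 h from -0.07 to -0.45, and then 5 of the 9 genes were higher and 3 lower: Rhag at -1.98 (adjusted p = 0.0312), Kel at -0.80 (0.0287) and Xk at -0.61 (0.0229), with Icam4 at 0.36 no longer called (0.288).

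**Figure D1:**
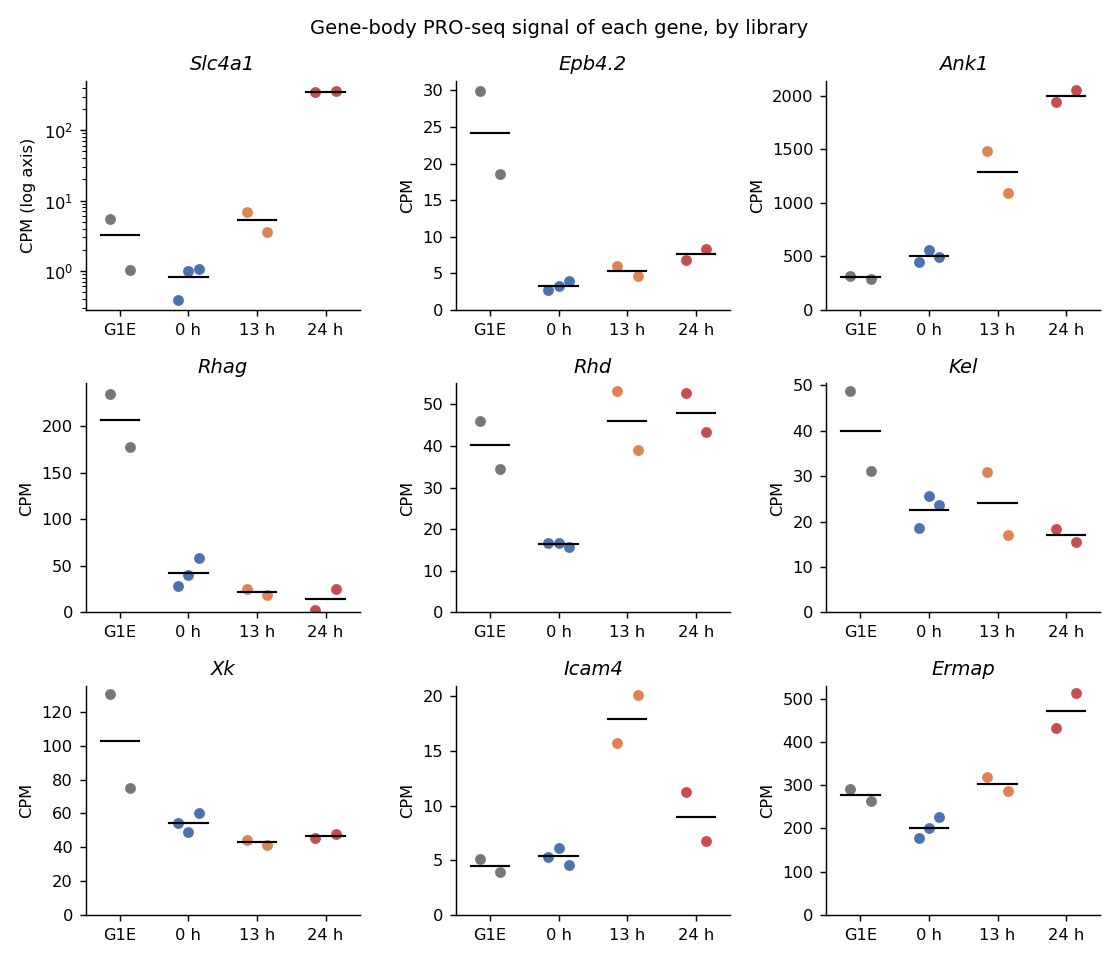
Gene-body CPM (y axis, logarithmic only for Slc4a1) of the 9 genes in the 2 G1E libraries and the 3, 2 and 2 G1E-ER4 libraries at 0, 13 and 24 h of estradiol; points are libraries and black lines are group means. Slc4a1 reaches 353 and 356 CPM only at 24 h, Ank1 and Ermap climb at each time, Rhd is level between 13 and 24 h, Icam4 is highest at 13 h, and Rhag is highest in G1E with its 24 h libraries far apart.

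Slc4a1, the band 3 gene, rose mostly after 13 h and by the largest factor of the 9. Its gene body held 5.48 and 1.01 CPM in G1E, 0.391, 0.994 and 1.08 CPM at 0 h, 6.91 and 3.61 CPM at 13 h, and 353 and 356 CPM at 24 h. Both 24 h libraries lay far above all others, both 13 h libraries lay above all 0 h libraries, and G1E overlapped 0 h. The 13 h level was 6.26 times the 0 h level (log2 fold change 2.65 ± 0.57 SE, adjusted p = 0.00464), and the 24 h level was 422 times it (8.72 ± 0.67, adjusted p = 3.93e-06). From 13 to 24 h the gene rose 67.5-fold (6.08 ± 0.71, adjusted p = 0.00124), so that the 13 h level was 1.48% of the 24 h level; with the first 2 digits of the number that opens each library title as a block (title number block), this rise was 5.46 and not called (adjusted p = 0.0514). No 13 h library shares those digits with a 24 h library, so in that step time and title number cannot be told apart. Without the filter on low counts the 13 h call was lost (adjusted p = 0.065).

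The peak over the Slc4a1 start (mm9 chr11:102224550-102227451, 2901 bases) took the same order as the gene body. It held 1.68 and 0.331 CPM in G1E, 0.214, 0.373 and 0.416 at 0 h, 2.08 and 1.61 at 13 h, and 78.9 and 110.3 at 24 h. Both 13 h libraries were above the 0 h libraries and both 24 h libraries above all others. The rise was 2.43 ± 0.46 on the log2 scale at 13 h (adjusted p = 0.00133) and 8.11 ± 0.47 at 24 h (adjusted p = 9.11e-08).

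A second peak lies over Bloodlinc, a noncoding RNA gene named in the table, at mm9 chr11:102235400-102238601. Its centre is 10.4 kb upstream of the Slc4a1 start, and it is assigned both to Bloodlinc and to Slc4a1. It held 0.426 and 0 CPM in G1E, 0.455, 0.497 and 0.265 at 0 h, 7.43 and 3.91 at 13 h, and 70.5 and 74.6 at 24 h. Both 13 h libraries stood clear of the 0 h libraries and well below the 24 h libraries. The peak rose by 3.83 ± 0.46 at 13 h (adjusted p = 5.66e-05) and by 7.51 ± 0.50 at 24 h against 0 h (adjusted p = 2.3e-07), and by 3.68 ± 0.48 between the times (adjusted p = 0.00115). At 13 h it had reached 7.82% of its 24 h level and the Slc4a1 start 1.95% of its own. The ratio of the Bloodlinc peak to the Slc4a1 start was 3.57 and 2.43 in the 13 h libraries and 0.893 and 0.676 in the 24 h libraries, with no overlap; that change of ratio was not tested, and at 0 h, on few reads, the ratio spread from 0.636 to 2.13.

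The Bloodlinc gene body was listed at 0 reads in all 5 G1E and 0 h libraries, at 0.0407 and 0.0583 CPM in the 13 h libraries and at 0.871 and 0.446 CPM in the 24 h libraries. Against a floor of 3 reads over the 0 h group, its 24 h level was at least 65.5-fold higher, and its 13 h level, on 8 reads, at least 5.06-fold higher. Such bounds leave out the counting error of the reads at 13 and 24 h. The peak held 5038 reads at 24 h and 47 at 0 h, beside 101 and 0 in this gene body. Most reads of the peak were thus not counted in the Bloodlinc gene body.

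Between Slc4a1 and Ubtf, 2 intergenic peaks are assigned to both genes, so neither can be given to Slc4a1 alone. Both lie downstream of Slc4a1 in its direction of transcription. Whether reads on its strand there come from polymerase running on past the gene was not tested. In the farther, 40.3 kb from the Slc4a1 start (mm9 chr11:102185550-102186951), the strand on which Slc4a1 lies held 0.202 and 0.265 CPM in G1E, 0.0535, 0.0622 and 0.302 at 0 h, 0.116 and 0.264 at 13 h, and 1.63 and 1.65 at 24 h. Only the 24 h libraries stood apart there. That strand rose by 3.43 ± 0.70 at 24 h against 0 h (adjusted p = 0.00108), while the opposite strand, which carried most of the reads, was at -0.09 ± 0.44 (adjusted p = 0.879, 95% interval -1.02 to 0.84). The opposite strand was lower at 13 h (-1.37 ± 0.46, adjusted p = 0.0334; -0.97 and 0.233 without 13 h replicate 2, 0.0581 and 0.086 without 0 h replicate 2 or 3) and higher at 0 h than in G1E (2.22 ± 0.50, adjusted p = 0.00601; 2.01 and 0.111 without G1E replicate 1, 2.59 and 0.0591 with the title number block). Opposite-strand reads made up 95.9% to 99.0% of that peak at 0 h and 63.7% and 84.1% at 24 h. In the nearer peak, the Slc4a1 strand was listed at 0 reads in every library before 24 h and at 4 and 15 reads at 24 h, at least 11.1-fold above the floor of the 0 h group.

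**Figure D2:**
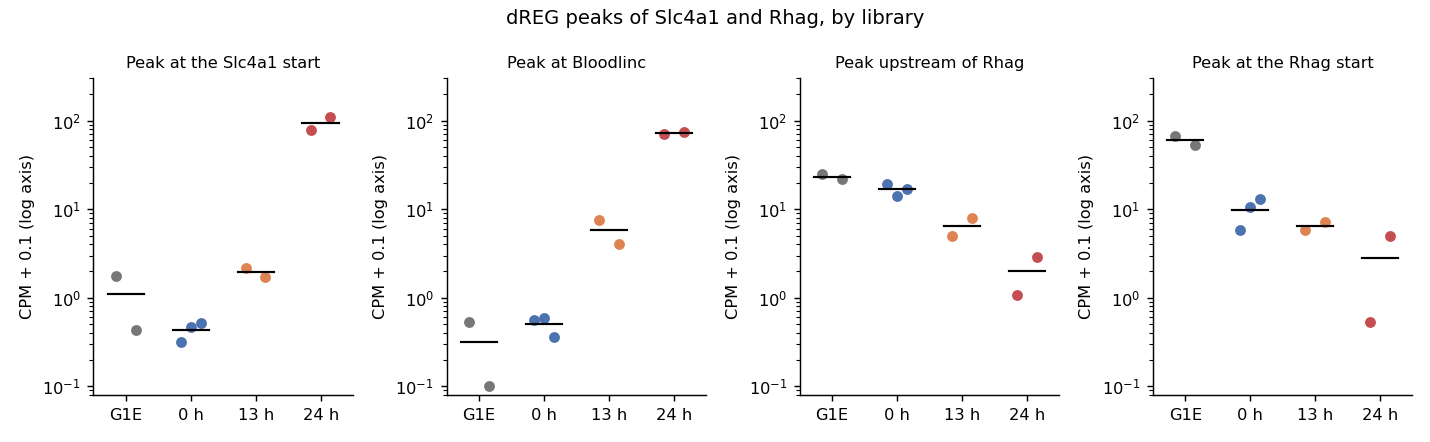
CPM plus 0.1 (logarithmic y axis) in the peaks at the Slc4a1 start, at Bloodlinc, 4.22 kb upstream of the Rhag start and at the Rhag start, for the G1E and the G1E-ER4 libraries at 0, 13 and 24 h; points are libraries and lines group means. At 13 h the Bloodlinc peak stands at 3.91 and 7.43 CPM and the Slc4a1 start at 1.61 and 2.08, levels not scaled for peak length. The upstream Rhag peak is lower at each time while the Rhag start has its large step between G1E and 0 h.

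Epb4.2, whose protein links band 3 to ankyrin, rose a little and stayed far below G1E. It held 29.9 and 18.5 CPM in G1E, 2.73, 3.28 and 3.90 at 0 h, 6.03 and 4.62 at 13 h, and 6.90 and 8.30 at 24 h. The groups did not overlap, in the order 0 h, 13 h, 24 h and G1E. The 24 h level was 2.30 times the 0 h level (1.2 ± 0.27, adjusted p = 0.00337), and the 13 h difference of 0.69 ± 0.27 was not called (edgeR, adjusted p = 0.0687), though it was by DESeq2 (adjusted p = 0.0312) and by edgeR with the title number block (0.82, adjusted p = 0.0454). Its start peak (mm9 chr2:120861250-120863451) was not called at 13 h (0.67 ± 0.43, adjusted p = 0.255) or at 24 h (0.49 ± 0.44, adjusted p = 0.359).

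The other entry assigned to Epb4.2 did something different. It lies 17.7 kb upstream, inside the transglutaminase gene Tgm5, to which it is also assigned, at mm9 chr2:120879550-120880851. It was at 0 CPM in both G1E libraries and at 0, 0.0311 and 0.0378 CPM at 0 h, stood at 2.20 and 0.719 at 13 h, and was back at 0.187 and 0.031 at 24 h. Only the 13 h libraries were high. The rise at 13 h was 5.72 ± 0.96 (adjusted p = 0.000643) and the change from 13 to 24 h was -3.66 ± 0.95 (adjusted p = 0.0259); that call was lost without 13 h replicate 1 (-2.65, adjusted p = 0.221) or 24 h replicate 2 (-2.85, adjusted p = 0.192). In edgeR with the title number block the change from 13 to 24 h was -4.78 and not called either (adjusted p = 0.287). The gene body of Tgm5, of which this peak is a part, took the same course, at 4.34 ± 0.69 at 13 h against 0 h (adjusted p = 0.000859) and -3.46 ± 0.77 at 24 h against 13 h (adjusted p = 0.0114).

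Ank1, the ankyrin gene, rose at each time from a level already above that of G1E. It held 321 and 289 CPM in G1E, 452, 561 and 498 at 0 h, 1486 and 1089 at 13 h, and 1946 and 2051 at 24 h. No group overlapped another, and the order was G1E, 0 h, 13 h, 24 h. The 13 h level was 2.56 times (1.35 ± 0.15, adjusted p = 0.000108) and the 24 h level 3.97 times the 0 h level (1.99 ± 0.15, adjusted p = 3.56e-06). The step from 13 to 24 h, 1.55-fold (0.63 ± 0.17, adjusted p = 0.0228), was not called without 13 h replicate 2 (0.43, adjusted p = 0.141), without 24 h replicate 2 (0.59, adjusted p = 0.0935), with total-count scaling (0.35, adjusted p = 0.13), with the title number block (0.67, adjusted p = 0.242) or in a fit of only the 2 groups (adjusted p = 0.0662).

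Of the 11 entries of Ank1, from 6 peaks inside the gene, several moved apart by strand. The table lists 3 starts on the plus strand of chromosome 8, at 24085308, 24145571 and 24168731 on mm9. Sense reads past the first of these lie within the gene and are not separate from its gene-body rise. The peak over the middle start (mm9 chr8:24144000-24147901) held 26.8 to 36.1 CPM at 0 h, 112 and 81.9 at 13 h, and 93.1 and 131 at 24 h. It was up by 1.62 ± 0.21 at 13 h (adjusted p = 7.55e-05) and by 1.83 ± 0.21 at 24 h (adjusted p = 1.2e-05), with the 13 and 24 h libraries overlapping (0.21 ± 0.23 between them, adjusted p = 0.582).

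Reads 7.02 kb before that start, inside the long form of the gene (mm9 chr8:24137200-24139901), ran mostly against the gene. The antisense strand held 4.53 and 3.05 CPM in G1E, 5.70, 6.15 and 5.82 at 0 h, 25.9 and 31.9 at 13 h, and 25.3 and 33.7 at 24 h. The 13 and 24 h libraries overlapped each other and stood clear of the rest. It rose by 2.29 ± 0.25 at 13 h (adjusted p = 1.97e-05) and by 2.33 ± 0.25 at 24 h (adjusted p = 7.14e-06). The sense strand of the same peak was up by 1.62 ± 0.34 at 13 h (adjusted p = 0.00224) and at 0.54 ± 0.34 at 24 h (adjusted p = 0.197). Antisense reads thus made up 56.1% to 67.8% of the peak at 0 h, 72.2% and 74.0% at 13 h, and 83.5% and 87.1% at 24 h.

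At the third start (mm9 chr8:24167600-24170001) the strands moved in opposite directions. This start lies inside the forms that begin at the earlier starts, so its sense rise is not separate from that of the gene body. The sense strand held 16.0 and 12.7 CPM in G1E, 17.7, 28.7 and 26.3 at 0 h, 36.8 and 43.5 at 13 h, and 64.2 and 88.5 at 24 h. The opposite strand held 3.07 and 4.64 CPM in G1E, 9.52, 6.18 and 7.18 at 0 h, 2.14 and 2.23 at 13 h, and 0.668 and 0.807 at 24 h. On neither strand did the 0, 13 and 24 h libraries overlap. The sense strand rose by 0.73 ± 0.24 at 13 h (adjusted p = 0.0302) and 1.66 ± 0.24 at 24 h (adjusted p = 7.23e-05), and the opposite strand fell by 1.80 (SE 0.36, adjusted p = 0.0016) and by 3.37 (SE 0.40, adjusted p = 1.33e-05). The sense rise at 13 h was not called without 0 h replicate 1 (0.54, adjusted p = 0.086) or without 13 h replicate 2 (0.61, adjusted p = 0.157). Its opposite-strand share was 17.7% to 35.0% at 0 h, 5.49% and 4.88% at 13 h, and 1.03% and 0.903% at 24 h (95% Wilson intervals at 24 h 0.699% to 1.52% and 0.617% to 1.32%, which cover counting error only).

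Further entries inside Ank1 rose on the sense strand as well, and those reads too lie within the gene and are not separate from its gene-body rise. The peak 4.13 kb before the third start rose by 0.92 ± 0.23 at 13 h (adjusted p = 0.00701) and 1.89 ± 0.23 at 24 h (adjusted p = 1.7e-05). Its opposite strand was at -0.56 ± 0.27 at 24 h (adjusted p = 0.0927), from 9.91 to 10.1 CPM at 0 h to 6.74 and 6.83 CPM at 24 h, with no overlap. The peaks 1.79 and 36.4 kb past that start, both also assigned to Mir486, rose on the sense strand by 2.03 ± 0.35 and 1.59 ± 0.25 at 24 h (adjusted p = 0.000292 and 0.000129). Their opposite strands held too few reads to be tested.

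**Figure D3:**
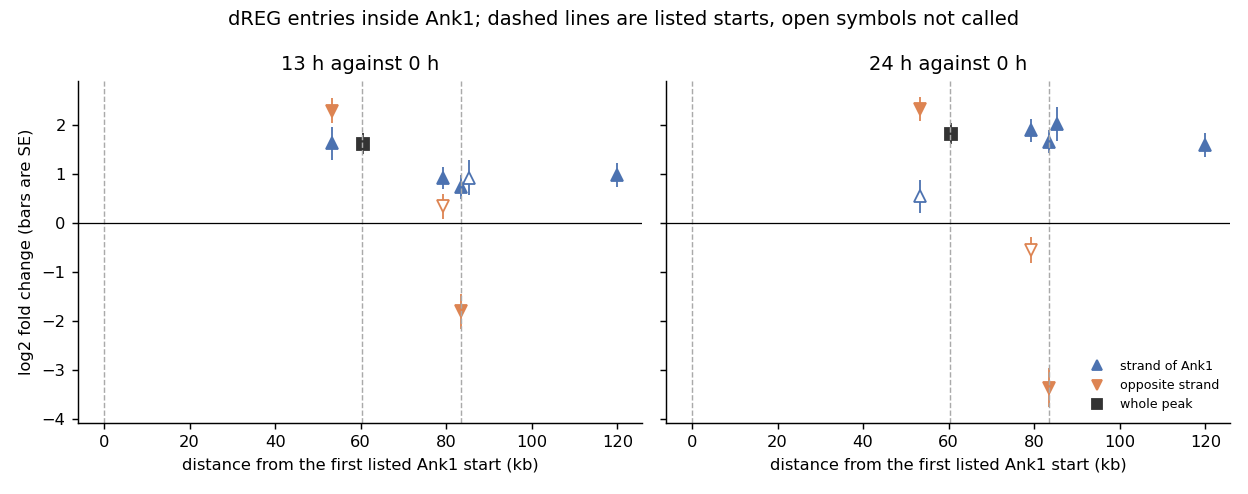
Log2 fold change with standard error (y axis) of the tested entries inside Ank1 against distance in kb from the first listed start (x axis), at 13 and at 24 h against 0 h; triangles up are the strand of the gene, triangles down the opposite strand, squares whole peaks, open symbols not called, dashed lines the listed starts. At the third start the strands separate to 1.66 and -3.37 at 24 h, while before the second start it is the opposite strand that rises most. Sense reads past the first start lie within the gene and are not separate from its gene-body rise.

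Rhag, the ammonium transporter that carries the Rh complex, was the member whose replicates differed most at 24 h. It held 234 and 178 CPM in G1E, 28.1, 40.5 and 58.1 at 0 h, 24.97 and 18.4 at 13 h, and 2.63 and 25.2 at 24 h. Both 13 h libraries lay just below the lowest 0 h library. At 24 h replicate 1 was far below every other library while replicate 2 stood just above both 13 h libraries. The difference at 24 h was -1.60 ± 0.70 and not called (adjusted p = 0.0701), but was -4 and called without 24 h replicate 2 (adjusted p = 0.000128). At 13 h it was -0.96 ± 0.68 (adjusted p = 0.283), and called when either 24 h library was left out (-0.95, adjusted p = 0.0241 without replicate 1 and 0.0244 without replicate 2). The 24 h libraries were 9.61-fold apart, and only 0.282% of the 13825 tested genes were at least as far apart between them.

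The peak upstream of Rhag fell, with its groups apart. This intergenic peak, 4.22 kb before the start (mm9 chr17:40942150-40945601) and assigned to Rhag alone, held 24.9 and 21.7 CPM in G1E, 19.1, 14.1 and 16.8 at 0 h, 4.85 and 7.79 at 13 h, and 0.963 and 2.82 at 24 h. The groups did not overlap, and each was lower than the one before it. It fell by 1.40 at 13 h (SE 0.38, adjusted p = 0.0113), by 3.15 at 24 h against 0 h (SE 0.42, adjusted p = 3.98e-05) and by 1.75 between the times (SE 0.42, adjusted p = 0.0178). With the title number block that last difference was -1.76 and not called (edgeR, adjusted p = 0.228). The 13 h call was lost without 13 h replicate 1 (-1.09, adjusted p = 0.104), and the last call without 13 h replicate 2 (-1.37, adjusted p = 0.0992) or 24 h replicate 1 (-1.16, adjusted p = 0.0941).

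The Rhag start peak (mm9 chr17:40947700-40951451) held 67.6 and 52.8 CPM in G1E, 5.78, 10.4 and 13.0 at 0 h, 5.78 and 7 at 13 h, and 0.428 and 4.93 at 24 h. Again 24 h replicate 1 was the low one. It was at -1.87 ± 0.79 at 24 h against 0 h (adjusted p = 0.0761), and at -4.34 without 24 h replicate 2 (adjusted p = 6.41e-05). The sense strands of the peaks inside the gene were likewise not called at 24 h (-2.05 ± 0.80 and -1.77 ± 0.84, adjusted p = 0.0514 and 0.112) unless that library was left out (-4.78 and -4.32, adjusted p = 0.00193 and 0.000368). Inside the gene, 9.98 kb past the start, the antisense strand of a peak fell from 0.642, 1.34 and 1.63 CPM at 0 h to 0.144 and 0.144 at 13 h and 0.0267 and 0.0931 at 24 h, by 3.03 and 4.30 on the log2 scale (SE 0.75 and 0.86, adjusted p = 0.00675 and 0.000969). These inner peaks and the start peak are also assigned to 9130008F23Rik.

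Rhd, the Rh blood group gene and partner of Rhag in the membrane, rose at 13 h and at 24 h against 0 h. It held 46.1 and 34.6 CPM in G1E, 16.7, 16.7 and 15.7 at 0 h, 53.1 and 39.0 at 13 h, and 52.7 and 43.3 at 24 h. The 0 h libraries were the lowest and nearly equal, and G1E, 13 h and 24 h overlapped. The 13 h level was 2.82 times (1.49 ± 0.19, adjusted p = 0.000208) and the 24 h level 2.93 times the 0 h level (1.55 ± 0.19, adjusted p = 5.63e-05). Between 13 and 24 h the difference was 0.06 ± 0.21 (95% interval -0.40 to 0.52, adjusted p = 0.859). The neighbour Tmem50a, within 20 kb, also rose, by 0.83 ± 0.24 at 13 h and 1.94 ± 0.24 at 24 h (adjusted p = 0.0191 and 6.8e-05), and the strand rule of the counting is not given in the sources used here.

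The start peak of Rhd (mm9 chr4:134418850-134422051) was not called at 13 h (0.78 ± 0.32, adjusted p = 0.0723) or at 24 h (0.34 ± 0.32, adjusted p = 0.384). A peak 4.63 kb inside the gene (mm9 chr4:134423150-134427001), also assigned to Tmem50a, held on its sense strand 11.4, 10.3 and 12.9 CPM at 0 h, 24.4 and 19.6 at 13 h, and 25.7 and 29.7 at 24 h. Its sense strand rose by 0.93 ± 0.22 at 13 h (adjusted p = 0.00453; 0.77 and 0.0573 without 13 h replicate 1) and by 1.26 ± 0.21 at 24 h (adjusted p = 0.000271). Its antisense strand, at 5.38, 3.32 and 6.67 CPM at 0 h and 2.81 and 3.97 at 24 h, overlapped and was not called (-0.60 ± 0.33, adjusted p = 0.138). The antisense share went from 24.4% to 34.1% at 0 h to 9.84% and 11.8% at 24 h. Sense reads of this peak lie within Rhd, so their rise is not separate from that of the gene body.

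Kel, the Kell blood group endopeptidase, was not called in its gene body. It held 48.7 and 31.1 CPM in G1E, 18.6, 25.6 and 23.6 at 0 h, 31.0 and 17.1 at 13 h, and 18.5 and 15.6 at 24 h. The 13 h libraries straddled the 0 h libraries, and the 24 h libraries lay just below the lowest of them. The difference was 0.09 ± 0.28 at 13 h (95% interval -0.53 to 0.71, adjusted p = 0.825) and -0.41 ± 0.28 at 24 h (95% interval -1.04 to 0.22, adjusted p = 0.234). At its start peak (mm9 chr6:41650950-41655801) the strand opposite to the gene held 2.89, 2.61 and 2.36 CPM at 0 h, 2.60 and 2.09 at 13 h, and 0.856 and 0.590 at 24 h. Only at 24 h was it clear of the 0 h libraries, lower by 1.85 on the log2 scale (-1.85 ± 0.38, adjusted p = 0.00116), while the strand of the gene was at -0.14 ± 0.34 (adjusted p = 0.76). The opposite-strand share there was 21.7% to 29.7% at 0 h and 10.2% and 7.34% at 24 h. An intergenic peak 2.08 kb upstream of Kel was lower on the same strand at 24 h (-2.98 ± 0.93, adjusted p = 0.0153) on 0 and 3 reads. It was not called without 24 h replicate 1 (-1.95) or with the title number block (-2.61, edgeR, adjusted p = 0.077).

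Xk, the membrane protein that pairs with Kel, was likewise not called. It held 131 and 74.9 CPM in G1E, 54.0, 49.2 and 60.2 at 0 h, 44.6 and 41.5 at 13 h, and 45.7 and 47.9 at 24 h. The 13 and 24 h libraries lay just below the lowest 0 h library. The difference was -0.34 ± 0.21 at 13 h (95% interval -0.82 to 0.13, adjusted p = 0.226) and -0.22 ± 0.21 at 24 h (95% interval -0.69 to 0.25, adjusted p = 0.391). Its start peak (mm9 chrX:8848150-8852801), at 42.7, 36.3 and 38.7 CPM at 0 h and 46.5 and 61.0 at 24 h, was at 0.45 ± 0.20 (adjusted p = 0.0731), a direction opposite to that of the gene body.

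Upstream of Xk, inside the neighbour Lancl3 to which they are also assigned, 2 peaks changed by strand at 24 h. The one 15.5 kb before the start (mm9 chrX:8833500-8835401) held on its antisense strand 0.589, 0.342 and 0.473 CPM at 0 h, 0.838 and 0.432 at 13 h, and 1.74 and 5.52 at 24 h. Both 24 h libraries were above all others, replicate 2 well above replicate 1. The rise was 2.94 ± 0.58 against 0 h (adjusted p = 0.000894). In the peak 28.2 kb before the start the sense strand was at 0.0535 and 0.186 CPM at 24 h, below the 0.497 to 1.79 CPM of 0 h (-3.04 ± 0.78, adjusted p = 0.00517; -2.37 and 0.0592 without 24 h replicate 1). Its antisense strand was at 0.98 ± 0.50 (adjusted p = 0.112). The Lancl3 gene body was lower at 24 h too (-2.67 ± 0.73, adjusted p = 0.00942).

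Icam4, the adhesion molecule that carries the LW blood group, was highest at 13 h. It held 5.10 and 3.94 CPM in G1E, 5.32, 6.16 and 4.60 at 0 h, 15.8 and 20.1 at 13 h, and 11.2 and 6.78 at 24 h. The 13 h libraries were above all others, and the 24 h libraries lay between 13 h and 0 h. The rise at 13 h was 3.35-fold (1.75 ± 0.27, adjusted p = 0.000755). At 24 h it was 0.75 ± 0.27 above 0 h (adjusted p = 0.0364) and lower than at 13 h (-1 ± 0.30, adjusted p = 0.0394). Neither of these calls was firm: the first was lost without 0 h replicate 1 (0.74, adjusted p = 0.0704), 0 h replicate 3 (0.65, 0.107) or 24 h replicate 1 (0.34, 0.38), and the second under 6 of the 9 omissions of 1 library (adjusted p from 0.0509 to 0.223). With the title number block they were at 0.97 and -0.67 (adjusted p = 0.0676 and 0.43).

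The reads of Icam4 cannot be separated from its neighbours with these tables. Its 1 peak (mm9 chr9:20832000-20838401, 6401 bases) overlaps Icam1, Icam4, Icam5 and Mir1900, and the start it is assigned to is that of Icam5. It held 116 and 148 CPM in G1E, 171, 218 and 212 at 0 h, 537 and 729 at 13 h, and 344 and 303 at 24 h. The order was the same as in the gene body of Icam4, with no overlap, and the changes were 1.66 ± 0.21 at 13 h (adjusted p = 5.67e-05) and 0.69 ± 0.21 at 24 h (adjusted p = 0.0131; 0.60 and 0.0949 without 24 h replicate 1). The Icam5 gene body rose by 2.32 ± 0.20 at 13 h (adjusted p = 2.8e-05) and was 0.97 ± 0.20 above 0 h at 24 h (adjusted p = 0.00199), whereas Icam1 was at -0.26 ± 0.33 and -0.82 ± 0.33 (adjusted p = 0.546 and 0.0548).

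Ermap, the Scianna blood group protein, rose at each time. It held 291 and 264 CPM in G1E, 178, 202 and 226 at 0 h, 319 and 287 at 13 h, and 432 and 512 at 24 h. The 0, 13 and 24 h libraries did not overlap. The 13 h level was 1.5 times (0.59 ± 0.13, adjusted p = 0.00618) and the 24 h level 2.34 times the 0 h level (1.23 ± 0.13, adjusted p = 3.17e-05). The step from 13 to 24 h was 1.56-fold (0.64 ± 0.15, adjusted p = 0.0139) and was not called without 13 h replicate 2 (0.57, adjusted p = 0.0806), without 24 h replicate 2 (0.51, adjusted p = 0.084), with total-count scaling (0.35, adjusted p = 0.0744) or with the title number block (0.39, adjusted p = 0.367). Its start peak (mm9 chr4:118860050-118864951) held 67.7, 71.0 and 78.1 CPM at 0 h, 134 and 187 at 13 h, and 141 and 184 at 24 h. The peak rose by 1.15 ± 0.20 at 13 h and 1.17 ± 0.20 at 24 h against 0 h (adjusted p = 0.00064 and 0.000277). Between 13 and 24 h it was at 0.02 ± 0.22 (95% interval -0.46 to 0.49, adjusted p = 0.987). Whether that differs from the step in the gene body, which was scaled separately, was not tested.

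**Figure D4:**
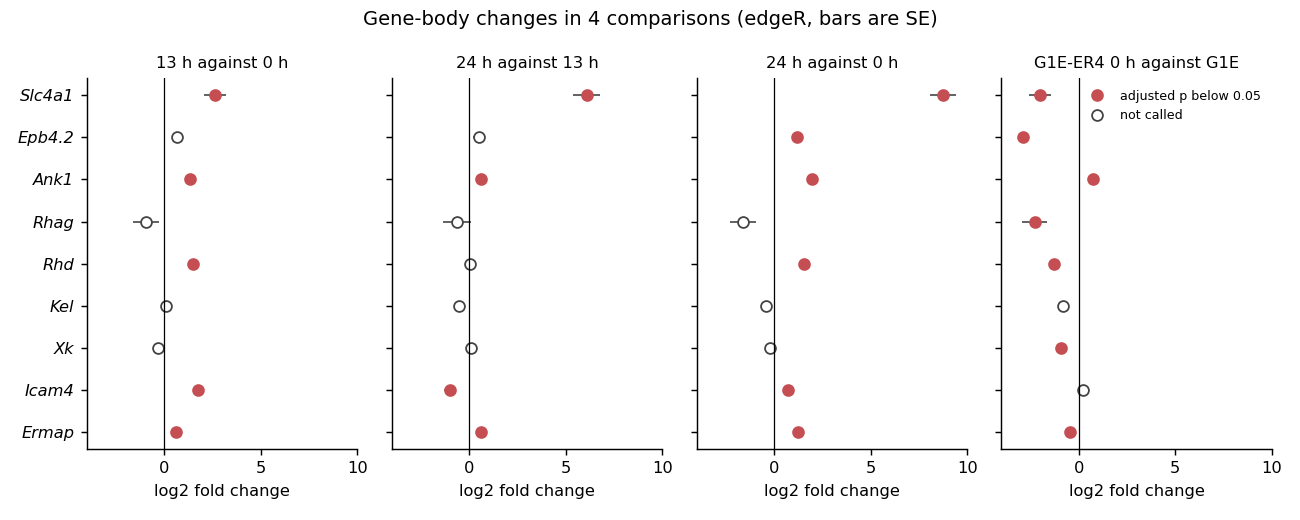
Log2 fold change of the gene bodies (x axis, bars are standard errors from edgeR, narrower than the symbol where not seen) for the 9 genes in 4 comparisons; filled points had an adjusted p below 0.05. Slc4a1 reaches 8.72 at 24 h, no filled point lies below 0 at 13 or 24 h against 0 h, and 6 of the 7 filled points lie below 0 when uninduced G1E-ER4 cells are compared with G1E.

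From 13 to 24 h, 3 of the 9 gene bodies were called higher (Slc4a1, Ank1, Ermap) and 1 lower (Icam4), where 24.2% of all genes were called, 11.7% higher and 12.5% lower. The median over the 9 genes was 0.12, beside -0.05 over all genes. No title number block holds both 13 h and 24 h libraries, so time and block cannot be told apart in this comparison. With total-count scaling, which put the median of all genes at -0.34, 1 was higher (Slc4a1) and 1 lower (Icam4). In the fit blocked by title number 0 were called (edgeR; 1 had an unadjusted p below 0.05, and DESeq2 without the block called 4), and in a fit of only the 2 groups Slc4a1 and Ermap were. Without 13 h replicate 2 only Slc4a1 was called, and without 24 h replicate 2 Slc4a1 was higher and Rhag lower (-3.05, adjusted p = 0.00913).

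In the 35 tested entries, changes went both ways more than in the gene bodies. These entries are not independent: the strands of a split peak count separately, and 11 of the 39 entries, several of the higher ones included, belong to Ank1. At 13 h, 12 were higher and 4 lower, where 33.8% of all entries were called, 15.2% higher and 18.6% lower. At 24 h against 0 h, 13 were higher and 6 lower, where 52.2% were called, 22.7% higher and 29.5% lower. From 13 to 24 h, 6 were higher and 6 lower, where 13.1% were called, 5.28% higher and 7.82% lower. That last count was 5 without either 13 h library or without 24 h replicate 2. Of the 13 entries at starts, 6 were higher and 2 lower at 24 h, and of the 7 tested antisense entries 2 were higher and 1 lower.

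**Figure D5:**
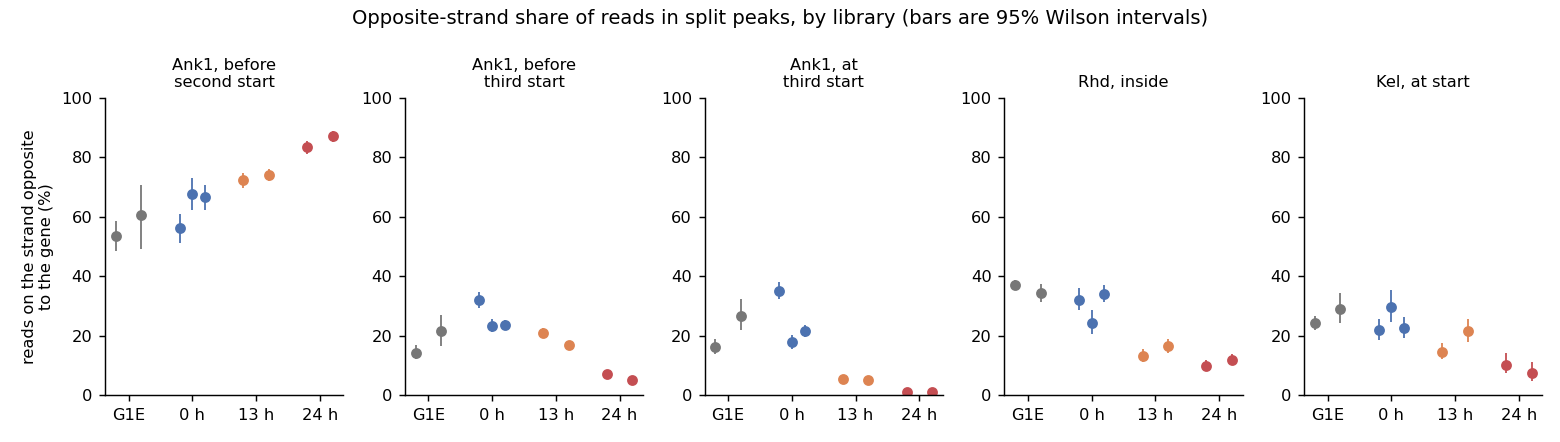
Share of reads on the strand opposite to the gene (y axis, percent) in 5 split peaks of Ank1, Rhd and Kel, for each G1E and G1E-ER4 library at 0, 13 and 24 h; bars are 95% Wilson intervals, which cover counting error only. The share falls to 0.903% and 1.03% at the third Ank1 start and to 9.84% and 11.8% inside Rhd, and climbs to 83.5% and 87.1% before the second Ank1 start. Sense reads of the Ank1 and Rhd peaks lie within the genes, so the share also depends on gene-body reads.

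Uninduced G1E-ER4 cells transcribed most of these genes less than G1E cells. At 0 h against G1E, 6 of 9 gene bodies were called lower and 1 higher, where 17.5% of all genes were called, 7.88% higher and 9.58% lower, and the median was -0.92 beside 0.04 over all genes. Among the 35 entries, 10 were lower and 4 higher, where 19.3% of all were called, 7.18% higher and 12.1% lower. Without G1E replicate 1 the entries called were 4. Epb4.2 had the largest difference, at -2.87 ± 0.28 (7.33-fold lower, adjusted p = 7.59e-05), and its start peak was at -2.26 ± 0.43 (adjusted p = 0.00189; -1.23 and 0.146 without G1E replicate 1). Rhd was 2.47-fold lower (-1.30 ± 0.19, adjusted p = 0.001), and its inner peak was lower on both strands (-1.85 ± 0.22 sense and -2.17 ± 0.31 antisense, adjusted p = 3.95e-05 and 0.00025). These calls on the gene bodies of Epb4.2 and Rhd held in every omission of 1 library.

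Each other call on a gene body against G1E was lost in at least 1 omission of a single library. Rhag was 4.87-fold lower (-2.28 ± 0.65, adjusted p = 0.0366), with all 3 libraries at 0 h far under both G1E libraries, but the adjusted p was between 0.0627 and 0.176 when any 1 of these 5 libraries was left out. Its start peak was at -2.63 ± 0.71 (adjusted p = 0.0341; 0.171 without G1E replicate 1 and 0.417 in the fit blocked by title number), while its upstream peak was at -0.48 ± 0.35 (adjusted p = 0.391). Slc4a1 was at -2.02 ± 0.58 (adjusted p = 0.0371) and its start peak at -1.75 ± 0.48 (adjusted p = 0.0211), with overlapping libraries; without G1E replicate 1 they were at -0.27 (adjusted p = 0.846) and 0.03 (adjusted p = 0.989). Slc4a1 was also not called without 0 h replicate 1 (adjusted p = 0.0858), replicate 2 (0.0712) or replicate 3 (0.0681).

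Xk was 1.89-fold lower (-0.92 ± 0.21, adjusted p = 0.0127) and at -0.45 without G1E replicate 1 (adjusted p = 0.166). Ermap was 1.38-fold lower (-0.46 ± 0.13, adjusted p = 0.0402), a call that was lost without either G1E library (adjusted p = 0.218 and 0.0821), without 0 h replicate 1 or 2 (0.109 in both) or without 13 h replicate 2 (0.0509). Kel was at -0.82 ± 0.28 and not called (adjusted p = 0.07), though both strands of its start peak were (-1.18 ± 0.33 and -1.34 ± 0.33, adjusted p = 0.0215 and 0.0114), and both lost the call without G1E replicate 1 (adjusted p = 0.284 and 0.137). Ank1 alone was higher, 1.65-fold (0.72 ± 0.16, adjusted p = 0.00981), and was at 0.65 without G1E replicate 2 (adjusted p = 0.0716). The opposite strand of its peak before the third start was higher as well (1.77 ± 0.29, adjusted p = 0.000626), a call kept in all 17 alternatives run. Icam4 did not differ past the threshold (0.24 ± 0.28, 95% interval -0.38 to 0.87, adjusted p = 0.638). The line comparison thus called 3 genes without G1E replicate 1, and 4 without G1E replicate 2 or without 0 h replicate 1 or 2.

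Relative to G1E, the 24 h level of the 9 genes fell on both sides. The mean at 24 h was 6.76% of the G1E mean for Rhag, 31.4% for Epb4.2, 42.7% for Kel and 45.5% for Xk, and 119% for Rhd, 170% for Ermap, 199% for Icam4 and 656% for Ank1. These shares are of group means and were not tested. For Rhag the share was 1.275% with 24 h replicate 1 alone and 12.25% with replicate 2 alone. For Slc4a1 it was 10910%, or 6468% and 34920% of G1E replicates 1 and 2 alone.

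Genes of the band 3 complex and of the membrane skeleton were mostly called higher at 24 h against 0 h. Of 18 other genes of that complex and of the spectrin-actin skeleton, all tested, 9 were higher and 1 lower at 13 h, 14 higher and 2 lower at 24 h against 0 h, and 10 higher and 0 lower from 13 to 24 h, with medians of 0.77, 1.73 and 1 on the log2 scale, beside -0.02, -0.07 and -0.05 over all genes. Over all genes, 20.1% were higher and 20.9% lower at 13 h, 29.0% and 30.7% at 24 h, and 11.7% and 12.5% between the times. Dmtn, the actin-bundling dematin, rose by 6.72 ± 0.21 at 24 h (adjusted p = 6.86e-08), from 3.14 to 4.26 CPM at 0 h to 460 and 361 CPM. The spectrin gene Sptb rose by 4.24 ± 0.20 (adjusted p = 3.98e-07). The members that fell were Actb and Tpm3, of the actin filament, at -1.05 ± 0.24 and -0.91 ± 0.18 (adjusted p = 0.00388 and 0.00124). At 0 h against G1E, 2 of these 18 genes were higher and 4 lower, where 7.88% of all genes were higher and 9.58% lower.

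Genes of other blood group and transport proteins of the red cell surface were called in both directions. Of 28 listed genes 25 were tested (Aqp1, Ackr1 and Emp3 were not), and 10 were higher and 6 lower at 13 h, 11 higher and 7 lower at 24 h, 6 higher and 6 lower between the times, and 2 higher and 5 lower at 0 h against G1E. The 24 h median was -0.02, beside -0.07 over all genes. Over all genes, 29.0% were higher and 30.7% lower at 24 h, 20.1% and 20.9% at 13 h, between the times 11.7% and 12.5%, and against G1E 7.88% and 9.58%. Slc38a5, an amino acid transporter, rose by 8.33 ± 0.32 at 24 h (adjusted p = 1.85e-07), from 0.116 to 0.261 CPM at 0 h to 72.7 and 65.2 CPM. Bcam, the Lutheran blood group adhesion molecule, rose by 5.70 ± 0.32 at 13 h and then was lower by 24 h (-1.94 ± 0.32, adjusted p = 0.00347), at 28.3 and 25.1 CPM and then 6.82 and 7.15 CPM. Atp2b4, a calcium pump, rose by 3.54 ± 0.20 at 24 h (adjusted p = 8.22e-07). Cd44, the Indian blood group antigen, fell by 3.62 (SE 0.26, adjusted p = 2.56e-06), the urea transporter Slc14a1, the Kidd blood group, by 2.31 (SE 0.46, adjusted p = 0.00149), and Tspo2, a membrane protein of erythroid cells, by 2.23 (SE 0.28, adjusted p = 8.7e-05).

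Likeness of course was measured by the root mean square difference of centred log2 CPM, with predicted, clone and Rik names left out. The remaining tested genes most like each member over the 9 libraries are given. For Ermap these were Ccnb1, Cryzl1 and Eps15 (0.0902 to 0.0997), and for Ank1 Tctn1, Ppp6r2 and Blvrb (0.127 to 0.137). For Xk they were Olfr56, Zdhhc9 and Itgb1 (0.151 to 0.186), for Rhd Iqcg, Stat3 and Spatc1l (0.199 to 0.229), for Icam4 Alkbh4, Tsc22d1 and Il17rc (0.211 to 0.259), and for Kel Apoc1, Pick1 and Cryl1 (0.232 to 0.239). Epb4.2 was nearest to Morc2a, Cacna1f and Hexa (0.276 to 0.32), and Rhag to Sis, Slc39a4 and C2 (0.483 to 0.534). The nearest to Slc4a1 were Kctd19, Dpep1 and Cyp2c29 (1.53 to 1.60). This distance grows with the range of a gene, so its size is not compared between members.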

How the data were processed

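PRO-seq libraries of G1E (2) and G1E-ER4 cells at 0 h (3), 13 h (2) and 24 h (2) were analysed from the raw read counts that the authors deposited per gene body and per dREG entry, a peak of divergent transcription or 1 strand of it. The submitters' processing notes name BWA and mm9; the sources used here give no version, no annotation and no strand rule for the counting. The position of an entry in its gene, in percent, was taken as deposited. Counts were filtered (filterByExpr), scaled by TMM and fitted with edgeR 4.0.16 (quasi-likelihood, robust) over 4 group means with 5 residual degrees of freedom, and p-values were adjusted by Benjamini-Hochberg over all features; each SE is the fold change over the square root of F. Alternatives included DESeq2 1.42.0, other scalings, no filter, blocks and leaving out each library. Of the 0 h libraries, only replicate 3 shared its first 2 title digits with the 24 h libraries and with G1E replicate 1. Title number was thus partly mixed with group where 0 h was compared with 24 h or with G1E. The scripts were tested on simulated data. The 9 genes and all gene lists were chosen with earlier results of these data known. Entries named in the text were those at starts, the strongest other one of each gene, those opposite to the gene body at 24 h, and some singled out after their values were seen; list genes were up to 3 called changes each way at 24 h, of which 1 is not reported here. Replicate libraries differed beyond sampling noise (chi-square per degree of freedom 82.6 to 224). Interval bounds cover counting or replicate error as named.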

Additional observations from a re-analysis of the deposited data

How the results depend on the processing

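Counts of called genes at 13 and 24 h against 0 h stayed within 1.5 times under all alternatives run, at 5 to 6 and 5 to 7 when a library was left out, and the entry counts at 13 to 19 and 18 to 22. At 24 h against 13 h, the 4 called genes became 2 with total counts, 2 with only the 2 groups fitted, 0 in a fit blocked by the first 2 digits of the title numbers (edgeR, 2 residual degrees of freedom; 1 with an unadjusted p below 0.05; DESeq2 without that block called 4), and 1 to 4 when a library was left out. The 7 genes at 0 h against G1E became 4 with no filter, 3 with the title number block and 3 to 8 when a library was left out. The 12 entries at 24 h against 13 h became 2 with the title number block and 5 to 15 without a library, and the 14 entries at 0 h against G1E became 4 to 17. The Slc4a1 start peak at 0 h against G1E, at -1.75, ran from -2.30 to 0.029 when a library was left out, the positive value without G1E replicate 1. Causes were not tested.

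The replicate numbers did not pair the libraries across all groups: same-number correlations of deviations ran from -0.15 to 0.459. They were 0.459 and 0.444 for the same-numbered 0 h and 13 h libraries, whose title numbers also share their first 2 digits. The main fit, over group means only, did not take this into account. Correlations were below 0 in 7 of the other 10 pairs. In a group of 2 libraries the deviations mirror each other, so values repeat and these pairs are not separate evidence. With the replicate block, 2 genes were called at 24 h against 13 h and 4 at 0 h against G1E. Over all genes, the counts moved from 3349 to 59 (title number block) and 1583 (only the 2 groups) at 24 h against 13 h, and to 1883 and 1233 without 13 h or 24 h replicate 2. At 0 h against G1E they moved from 2415 to 1552 (replicate block), 820 (title number block), and 1145 and 1577 without G1E replicate 1 or 2. Total counts turned the split of higher and lower genes from 4014 and 4246 to 2614 and 5863 at 24 h against 0 h, and from 1617 and 1732 to 641 and 3082 at 24 h against 13 h. Over all entries, 4607 called at 24 h against 13 h became 1016 (title number block), 2433 (gene-body scaling) and 651 to 2931 without a 13 h or 24 h library, 11882 at 13 h became 7625 without 13 h replicate 1, and 6768 at 0 h against G1E became 2420 without G1E replicate 1. Gene-body scaling moved the split of entries at 13 h from 5358 higher and 6524 lower to 5654 and 4451. The entries at 24 h against 13 h, 1858 higher and 2749 lower, became 561 and 1872 with it, and 764 and 2906 with total counts. Depth limits the entries with few reads: 4 of 39 could not be tested.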

Other observations

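Genes related by sequence to the 9 members, the paralogs in the band 3, transglutaminase, ankyrin, Rh, neprilysin, XK, ICAM and butyrophilin families, were called in both directions. Of 39 listed, 29 were tested, and 9 were higher and 8 lower at 13 h, 6 higher and 12 lower at 24 h against 0 h, 2 higher and 11 lower from 13 to 24 h, and 5 higher and 7 lower at 0 h against G1E. Over all genes 20.1% were higher and 20.9% lower at 13 h, 29.0% and 30.7% at 24 h, 11.7% and 12.5% between the times, and 7.88% and 9.58% against G1E. The 24 h median of the paralogs was -0.80, beside -0.07 over all genes, and whether they differ from other genes was not tested. Btnl10 and Btn1a1, relatives of Ermap, rose by 7.92 ± 0.69 and 4.71 ± 0.19 at 24 h (edgeR, adjusted p = 7.74e-06 and 1.91e-07). Btn1a1 went from 4.08 to 5.10 CPM at 0 h to 102 and 140 CPM, and Btnl10 from 0.0126 to 0.0258 CPM to 2.65 and 7.66 CPM. The endothelin-converting enzyme gene Ece1, related to Kel, was highest at 13 h, at 36.3 and 25.03 CPM, beside 1.17 to 3.70 CPM at 0 h and 12.3 and 6.88 CPM at 24 h.

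The largest falls in these families were in Tgm2, Slc4a10 and Phex. Tgm2, a transglutaminase related to Epb4.2, fell by 5.37 (SE 0.48, adjusted p = 8.7e-06), from 4.65 to 8.20 CPM at 0 h to 0.161 and 0.149 CPM. Slc4a10, a bicarbonate transporter of the band 3 family, fell by 4.76 (SE 0.67, adjusted p = 0.000162), and Phex, an endopeptidase related to Kel, by 3.44 (SE 0.37, adjusted p = 2.69e-05). In each of these 3 genes both 24 h libraries lay below all 0 h libraries.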
